A study of Arabidopsis thaliana with 6 samples.

Results

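The carboxy-terminal DeCL domain of NRPD1 was examined for its part in CHH methylation by comparing plants whose NRPD1 transgene lacks the domain with plants that carry the full-length transgene. The 4 libraries of this comparison, of 6 in the series, were 2 of nrpd1dDeCL, for which the study's name NRPD1ΔCTD is used, and 2 of full-length NRPD1 (NRPD1 FL). The 2 libraries of nrpd1-3 without a transgene gave the background. The groups were taken from the transgene field of the labels, since the full-length titles read NRPE1FL. All 6 libraries came from genomic DNA of above-ground tissue of 2.5-week-old Arabidopsis thaliana plants, ecotype Col-0, grown in days of 16 h light and 8 h dark. Every group, NRPD1 FL included, carried nrpd1-3, a T-DNA insertion that disrupts the endogenous gene. Both transgenes were driven by the NRPD1 promoter, carried a C-terminal FLAG tag and were selected with Basta. No wild-type library was used here, so NRPD1 FL was the comparator throughout. The study describes the libraries of a genotype as independent biological replicates, and the labels do not say whether they came from different transgenic lines. A difference between the transgenic lines themselves cannot be told apart from the deletion.

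The genome was divided into windows of 300 bp from the first base of each chromosome. A window was tested when each of the 4 libraries listed at least 10 CHH cytosines with 5 reads or more, which held for 285650 of 397157 windows (71.9%). The level of a window is the number of methylated reads over all reads at its CHH cytosines, in percent, and differences between levels are given in percentage points as NRPD1ΔCTD minus NRPD1 FL. Dense heterochromatin stands for the pericentromeres and the heterochromatic knob of chromosome 4, within the limits given in the study's methods, and arms for the rest.

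NRPD1 is the largest subunit of Pol IV, a plant-specific RNA polymerase. Its transcripts are copied by RDR2 and cut by DCL3 into siRNAs, which AGO4 carries to transcripts of Pol V, and there DRM2 methylates cytosines in every context. CHH methylation (H is A, C or T) is not copied from the other strand at replication. It is kept up by this pathway mainly at short elements in the chromosome arms and at the edges of long ones, and by CMT2 inside the long elements of pericentromeric heterochromatin.

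The reverse primer used for the deletion construct was read against the reference to place the missing segment. It is shown because its first base sets where the kept NRPD1 sequence ends.

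NRPD1ΔCTD reverse primer: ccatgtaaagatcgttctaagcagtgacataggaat

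All 36 bases matched chr1:23355834-23355869 (TAIR10.1), within the coding sequence of NRPD1, a gene on the bottom strand. Full-length NRPD1 has 1453 residues in the annotation, and the construct lacks the last 117 of them. Over the removed part, chr1:23355329-23355833, read depth relative to the chromosome median was 1.47 and 1.63 in the NRPD1ΔCTD libraries against 2.81 and 2.66 in NRPD1 FL and 1.63 and 1.93 in nrpd1-3. Over the kept coding part it was 2.84 and 2.88 in NRPD1ΔCTD, 3.45 and 3.25 in NRPD1 FL, and 1.97 in both nrpd1-3 libraries. The extra depth of the NRPD1ΔCTD libraries over nrpd1-3 was thus seen in the kept part and not in the removed part.

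Of the 285650 tested windows, 2089 (0.731%) were lower in NRPD1ΔCTD and 45 (0.0158%) were higher. A call needed a difference of at least 10 points and an adjusted p of 0.01 or less in the likelihood-ratio test of a logistic regression with Benjamini-Hochberg adjustment over all tested windows. Each of the following 5 windows is among the 2089. They are the 5 with the largest loss among the 10 lower windows named by the rule given further on, and they are shown to place the lost methylation base by base. The letters in capitals are CHH cytosines listed in all 4 libraries at which the pooled level of NRPD1 FL was at least 30 points above that of NRPD1ΔCTD. A capital C lies on the top strand, and a capital G marks a cytosine of the bottom strand.

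chromosome 2 arm (chr2:12725401-12725700): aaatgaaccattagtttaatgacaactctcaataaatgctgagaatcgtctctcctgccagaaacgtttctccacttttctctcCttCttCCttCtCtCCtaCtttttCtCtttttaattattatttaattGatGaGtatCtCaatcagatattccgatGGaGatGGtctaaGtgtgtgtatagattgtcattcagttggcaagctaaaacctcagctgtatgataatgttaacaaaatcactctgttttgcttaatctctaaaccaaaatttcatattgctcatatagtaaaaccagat

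chromosome 5 arm (chr5:18737701-18738000): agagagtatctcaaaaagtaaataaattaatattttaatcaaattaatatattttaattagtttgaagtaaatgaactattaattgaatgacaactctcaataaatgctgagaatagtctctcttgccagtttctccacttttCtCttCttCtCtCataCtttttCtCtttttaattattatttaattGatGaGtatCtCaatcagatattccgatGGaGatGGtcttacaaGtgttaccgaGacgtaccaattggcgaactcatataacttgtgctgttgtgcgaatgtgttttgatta

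chromosome 2 dense heterochromatin (chr2:6544201-6544500): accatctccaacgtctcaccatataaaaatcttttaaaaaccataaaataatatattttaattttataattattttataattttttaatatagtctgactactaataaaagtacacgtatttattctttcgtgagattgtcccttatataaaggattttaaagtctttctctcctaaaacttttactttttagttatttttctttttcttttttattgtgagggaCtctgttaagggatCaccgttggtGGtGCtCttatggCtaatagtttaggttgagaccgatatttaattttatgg

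chromosome 1 arm (chr1:21640501-21640800): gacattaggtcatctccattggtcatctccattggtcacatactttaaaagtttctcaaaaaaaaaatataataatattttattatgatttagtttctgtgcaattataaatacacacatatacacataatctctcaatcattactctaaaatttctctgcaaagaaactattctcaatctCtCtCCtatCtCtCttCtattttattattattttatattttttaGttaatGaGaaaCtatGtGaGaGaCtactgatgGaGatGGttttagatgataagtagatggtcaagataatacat

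chromosome 4 arm (chr4:14546401-14546700): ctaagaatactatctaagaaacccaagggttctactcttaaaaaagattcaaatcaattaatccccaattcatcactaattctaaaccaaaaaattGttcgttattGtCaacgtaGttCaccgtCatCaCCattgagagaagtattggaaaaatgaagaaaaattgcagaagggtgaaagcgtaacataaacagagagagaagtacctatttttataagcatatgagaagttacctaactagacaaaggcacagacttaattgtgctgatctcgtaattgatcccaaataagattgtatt

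In the chromosome 2 arm window, all 22 cytosines listed in the 4 libraries were in capitals, 13 on the top strand and 9 on the bottom strand. In the chromosome 5 arm window it was 21 of 24, in the chromosome 2 dense heterochromatin window 8 of 10, in the chromosome 1 arm window 21 of 31 and in the chromosome 4 arm window 9 of 11. Among the cytosines listed in all 4 libraries, the loss thus covered most in these windows, with capitals on both strands. The windows were chosen for their large loss, so a high share in capitals follows in part from that choice. Cytosines not listed in all 4 libraries are in lower case whatever their loss. In the chromosome 2 arm window NRPD1 FL listed 54 and 50 cytosines and NRPD1ΔCTD 33 and 24.

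The windows differed in what was left. Of the cytosines at 20% or more in NRPD1 FL, 16 of 24 in the chromosome 5 arm window had no methylated read in either NRPD1ΔCTD library, as had 7 of 9 in the chromosome 2 dense heterochromatin window and 8 of 9 in the chromosome 4 arm window. In the chromosome 2 arm and chromosome 1 arm windows this held for 1 of 22 and 1 of 28 cytosines.

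The chromosome 2 arm and chromosome 5 arm windows share a run of 70 identical bases, whereas the other pairs of printed windows share at most 15 on the same strand. A search of the reference with up to 14 mismatches found 6 copies of this run, 2 of them identical. In the identical copy on chromosome 2 the levels were 4.65% and 10% in NRPD1ΔCTD against 79.7% and 69.6% in NRPD1 FL, and 0% in both nrpd1-3 libraries. In the identical copy on chromosome 5 they were 0.913% and 2.20% in NRPD1ΔCTD against 65.1% and 70.2% in NRPD1 FL. A further copy, on chromosome 5 with 10 mismatches, had 88.0% and 82.5% at 9 cytosines in each NRPD1 FL library and no listed cytosine in NRPD1ΔCTD or nrpd1-3. Another copy with 10 mismatches, on chromosome 1, had 86.1% and 75% in NRPD1 FL and again no listed cytosine in the other libraries. A copy with 14 mismatches on chromosome 1 overlapped between the groups, with 0.980% and 16.7% in NRPD1ΔCTD against 32.4% and 15.9% in NRPD1 FL, and the last copy had no listed cytosine in NRPD1 FL. The run was noticed after the windows had been chosen for their loss.

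**Figure D1:**
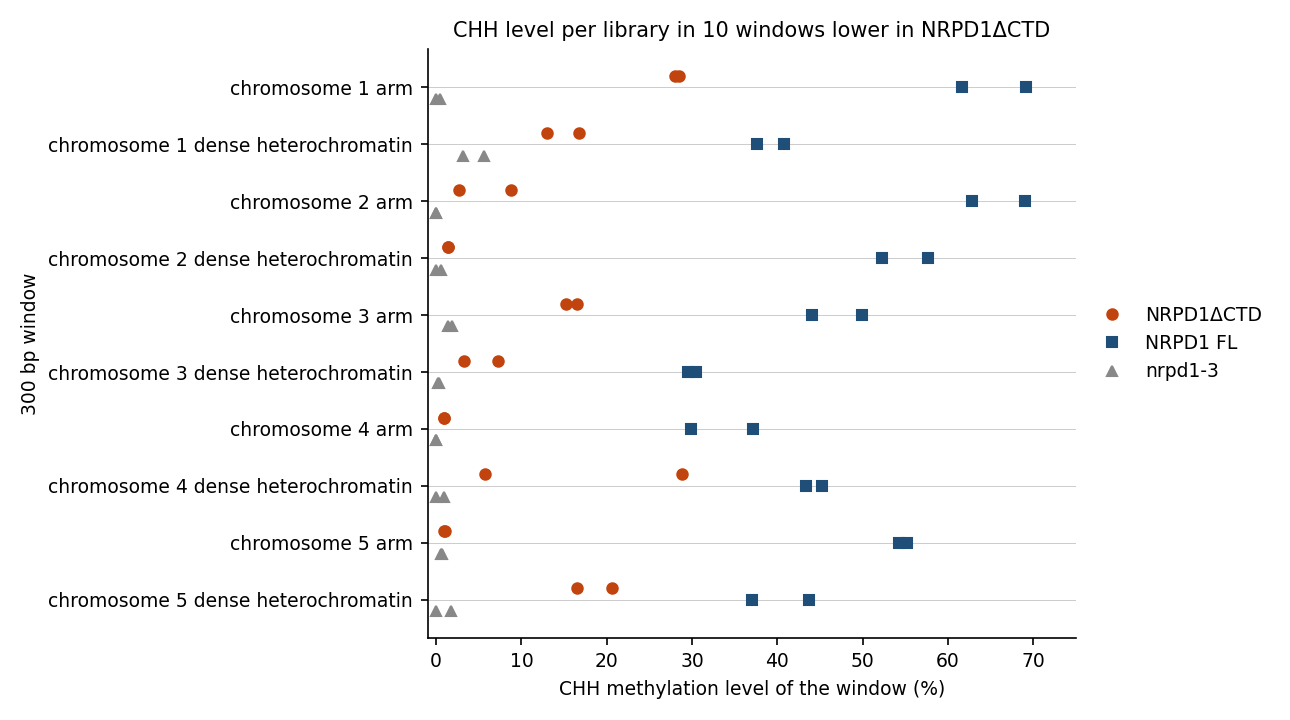
CHH methylation level (%) of 10 windows lower in NRPD1ΔCTD, the largest loss in the arms and in the dense heterochromatin of each chromosome, with 1 point per library of NRPD1ΔCTD, NRPD1 FL and nrpd1-3. Both NRPD1ΔCTD libraries lie left of both NRPD1 FL libraries in every window, and the distance of NRPD1ΔCTD from nrpd1-3 varies between windows.

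By rule, the window with the largest loss was named for the arms and for the dense heterochromatin of each chromosome, among 1217 lower windows with at least 20 listed cytosines in each of the 4 libraries and no overlap between the groups. The largest was the chromosome 2 arm window, 552 bp downstream of AT2G29810, with 2.72% and 8.74% in NRPD1ΔCTD against 69.0% and 62.8% in NRPD1 FL (difference -59.9, adjusted p = 1.61e-154 in the likelihood-ratio test). Both nrpd1-3 libraries read 0% in this window, below both NRPD1ΔCTD libraries. The chromosome 5 arm window, 847 bp upstream of AT5G46220, had 0.973% and 1.10% in NRPD1ΔCTD against 54.2% and 55.1% in NRPD1 FL. The chromosome 2 dense heterochromatin window, 232 bp downstream of KCS8, which encodes a ketoacyl-CoA synthase, had 1.44% and 1.37% in NRPD1ΔCTD against 52.3% and 57.6% in NRPD1 FL. The chromosome 4 arm window, 235 bp downstream of AT4G29710, had 0.985% and 0.901% in NRPD1ΔCTD against 29.9% and 37.1% in NRPD1 FL. In these 4 windows the 2 nrpd1-3 libraries read between 0% and 0.707%, so that little of the full-length level remained without the domain.

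Other named windows kept an intermediate level. The chromosome 1 arm window, 441 bp upstream of ZW2, had 28.0% and 28.4% in NRPD1ΔCTD against 61.7% and 69.1% in NRPD1 FL, with 0.485% and 0% in nrpd1-3. In the chromosome 3 arm window, upstream of AT3G49030, the levels were 15.2% and 16.5% in NRPD1ΔCTD against 49.9% and 44.1% in NRPD1 FL. The chromosome 5 dense heterochromatin window, downstream of AT5G30490, had 20.6% and 16.5% in NRPD1ΔCTD against 37.0% and 43.7% in NRPD1 FL. These windows lay between NRPD1 FL and nrpd1-3 in both replicates. In the chromosome 5 dense heterochromatin window, however, nrpd1-3 replicate 2 listed only 3 cytosines with 23 reads.

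The remaining named windows lay in dense heterochromatin. The chromosome 1 window, 1015 bp downstream of the A-type cyclin gene CYCA1;1, had 13.04% and 16.8% in NRPD1ΔCTD against 37.6% and 40.7% in NRPD1 FL, and the chromosome 3 window had 7.28% and 3.23% against 30.4% and 29.6% in NRPD1 FL. The chromosome 4 window, 1678 bp upstream of AT4G08910, had 5.73% and 28.8% in NRPD1ΔCTD against 43.3% and 45.3% in NRPD1 FL. Its NRPD1ΔCTD libraries lay further from each other than replicate 2 lay from NRPD1 FL. In each of these 10 windows both NRPD1ΔCTD libraries had fewer reads than both NRPD1 FL libraries, for example 257 and 309 in NRPD1ΔCTD against 1002 and 991 in NRPD1 FL for the chromosome 2 arm window.

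Across the 2089 lower windows the level was 21.0% and 20.3% in NRPD1ΔCTD against 34.7% and 34.4% in NRPD1 FL, with 3.60% and 3.45% in nrpd1-3. NRPD1ΔCTD therefore held a level well above nrpd1-3. The groups did not overlap in 2042 of the lower windows (97.8%), and both NRPD1ΔCTD libraries lay below both NRPD1 FL libraries in 18.0% of all tested windows, against 14.7% with both above. The median difference of the lower windows was -13.5 points. The windows were called on these same 4 libraries, so the gap between the groups and the lack of overlap follow in part from the call. A loss of 20 points or more was found in 266 windows and of 30 points or more in 41. Of 1511 lower windows with enough cytosines in nrpd1-3 as well, NRPD1ΔCTD was above nrpd1-3 in 1464 (96.9%), and in 154 (10.2%) they lay within 2 points of each other.

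Most lower windows (82.96%) had no called window next to them. A neighbour that was untested or fell short of the call ends a stretch, and clustering was not tested. They formed 1906 stretches of adjacent windows, of which 1733 (90.9%) were a single window, 164 had 2 windows, 8 had 3 and 1 had 4. The stretch of 4 windows, chr1:12906601-12907800 near AT1G35215, had 30.3% and 29.1% in NRPD1ΔCTD against 42.5% and 41.7% in NRPD1 FL, with 6.05% and 5.75% in nrpd1-3.

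The call by reads does not allow for extra spread between replicates, and the overdispersion of the lower windows had a median of 2.73, against 0.871 over all tested windows. With a quasi-binomial F test or with limma on log2((methylated + 1)/(unmethylated + 1)), no window of 10 points or more passed in either direction. At an unadjusted p under 0.05 and a loss of 10 points, the quasi-binomial test kept 1000 lower and 16 higher windows and limma kept 1318 and 23. The counts also moved with the cytosines required: 1153 windows were lower with 10 reads or more per cytosine, 1237 with 20 cytosines or more per window.

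Depth moved with the calls. Relative to all tested windows of the same library, reads per cytosine in the lower windows were 0.853 and 0.816 in NRPD1ΔCTD, 0.948 and 0.931 in NRPD1 FL, and 0.716 and 0.709 in nrpd1-3. The cytosines listed per lower window averaged 30.2 and 31.3 in NRPD1ΔCTD, 37.9 and 36.5 in NRPD1 FL, and 21.2 and 21.3 in nrpd1-3, so libraries with lower methylation also listed fewer cytosines. The part of depth in the result was not tested directly. With only the cytosines listed in all 4 libraries, 1541 windows were lower and 28 were higher, and after thinning reads to the shallowest library 1958 were lower and 46 higher.

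The lower windows were rich in A and T. Their median GC content was 29.7%, against 36.3% in the windows at 20% or more in NRPD1 FL that were not called lower and 38.3% in all tested windows. They held a median of 68 CHH cytosines in the reference, against 81 and 83, and 32.8% of these were CAA or CTA, against 29.2% and 26.7%. The values were close to these in arms and in dense heterochromatin taken alone, with GC medians of 29.7% and 30% for the lower windows. The windows compared with them were not matched for the level in nrpd1-3, which had a median of 1.67% in the 1511 lower windows with enough cytosines there. Windows equally low in nrpd1-3 but not called lower were not compared.

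Over all tested windows the level was 7.06 ± 0.28% in NRPD1ΔCTD and 7.24 ± 0.229% in NRPD1 FL (SD, n = 2 each), with 6.63% in nrpd1-3. The replicates overlapped, and replicate 1 was the higher library in all 3 groups. With 2 libraries against 2, the exact permutation test cannot give a p below 0.333, so group levels are described below by whether both NRPD1ΔCTD libraries lay below both NRPD1 FL libraries ("apart") or not ("overlapping").

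The deficit was then followed along the scale of full-length methylation. To keep the library that defines a bin out of its measurement, windows were binned on 1 NRPD1 FL library and measured in the other and in the NRPD1ΔCTD libraries, and both ways round were averaged. Windows under 1% in NRPD1 FL read 0.394% in NRPD1ΔCTD and 0.379% in NRPD1 FL, which overlapped. Between 2% and 5% the difference was -0.392 points, between 5% and 10% it was -0.243 (-0.156 without NRPD1ΔCTD replicate 2), and between 10% and 20% it was -0.0501, where the groups overlapped at 14.2% in NRPD1ΔCTD and 14.3% in NRPD1 FL. The deficit then deepened with the level: -1.08 points at 20% to 30%, -5.55 at 30% to 40% and -7.81 at 40% to 50%, where NRPD1ΔCTD had 35.3 ± 0.214% and NRPD1 FL 43.2 ± 0.389% (SD, n = 2 each). At 50% or more it was -6.90, with 49.3% in NRPD1ΔCTD and 56.2% in NRPD1 FL. All bins from 20% upward were apart.

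For the windows at 20% or more together, NRPD1ΔCTD had 23.5% and 23.3% against 25.9% and 25.4% in NRPD1 FL, a difference of -2.21 points. This value rests on how windows are weighted. With each window counted equally instead of by its reads it was -4.27 points. With bins defined on 1 NRPD1ΔCTD library, an alternative chosen after seeing the data, it was -1.53. The share of windows called lower is given as a description, since the call uses the same NRPD1 FL libraries as the mean level and a fixed loss of 10 points is easier to reach from a higher level. It was 0.888% at a mean full-length level of 10% to 20%, 9.10% at 20% to 30%, 29.4% at 30% to 40%, 45.7% at 40% to 50% and 52.7% at 50% or more, against 0.731% of all tested windows. Windows under 10% can hardly lose 10 points, and 1 of them was called.

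**Figure D2:**
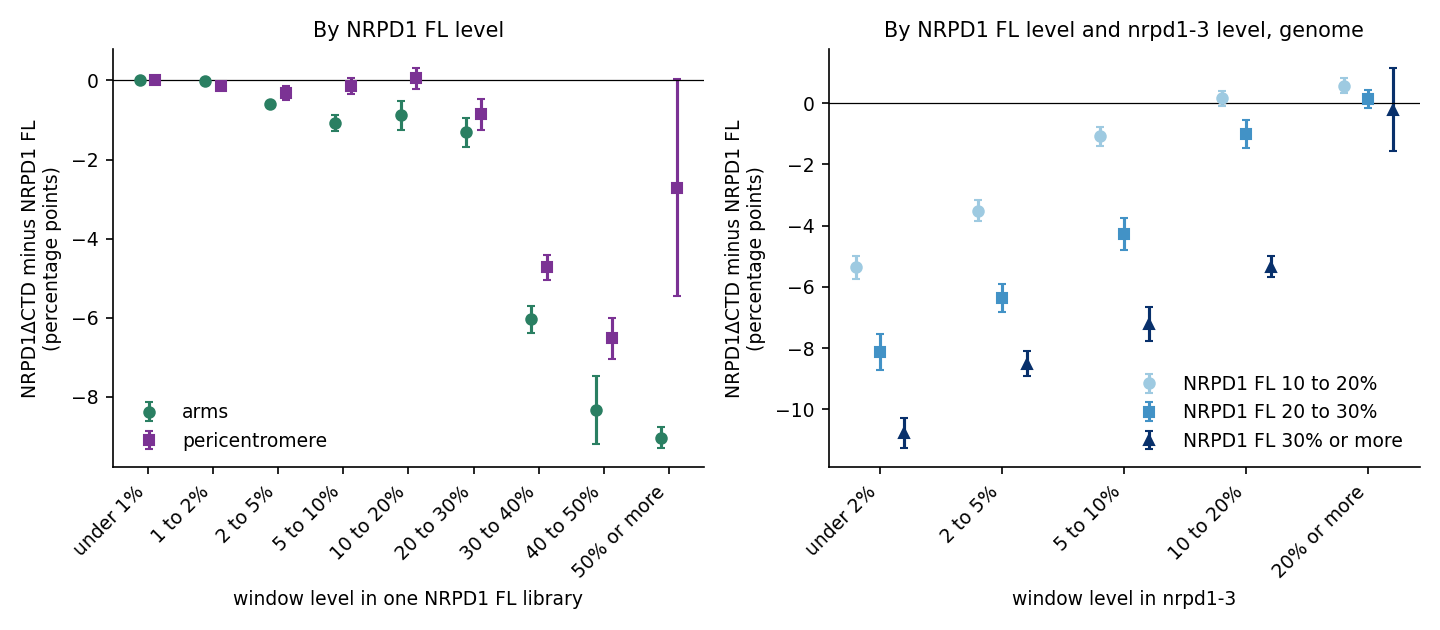
Difference in CHH level, NRPD1ΔCTD minus NRPD1 FL in percentage points, by the window's level in NRPD1 FL for arms and pericentromere (left) and by its level in nrpd1-3 within 3 classes of NRPD1 FL level (right); error bars are the SD of the difference from 2 libraries per group. In the arms the difference goes from 0.0162 under 1% to -9.04 at 50% or more, and within each full-length class the deficit is largest under 2% in nrpd1-3. At 20% or more in nrpd1-3 the difference is 0.573, 0.145 and -0.211 points in the 3 classes.

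The same full-length level carried different deficits in arms and pericentromere. At 5% to 10% in NRPD1 FL the difference was -1.08 points in the arms and -0.148 in the pericentromere, and at 10% to 20% it was -0.883 in the arms and 0.0489 in the pericentromere. The arm libraries were apart in both bins and the pericentromere libraries overlapped in both. At 50% or more, the arms had 46.8% in NRPD1ΔCTD against 55.8% in NRPD1 FL (-9.04), and the pericentromere 54.6% against 57.3% (-2.71). In those windows nrpd1-3 itself held 18.98% in the arms and 46.5% in the pericentromere.

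The level in nrpd1-3 gives the methylation present without Pol IV, and the deficit was smaller where it was higher. At a full-length level of 10% to 20%, windows under 2% in nrpd1-3 had 9.004% and 8.63% in NRPD1ΔCTD against 14.4% and 13.98% in NRPD1 FL, a difference of -5.36 points or -37.8% of the full-length level. With 2% to 5% in nrpd1-3 the difference was -3.51, with 5% to 10% it was -1.08, and with 10% to 20% it was 0.168 and the groups overlapped. Windows at 20% or more in nrpd1-3 had 20.01% and 19.8% in NRPD1ΔCTD against 19.5% and 19.2% in NRPD1 FL, and there NRPD1ΔCTD was the higher group, by 0.573 points.

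The deficit was again largest under 2% in nrpd1-3 at higher full-length levels. At 20% to 30%, the difference was -8.14 points with under 2% in nrpd1-3, -6.36, -4.27 and -1.01 in the following classes, and 0.145 (overlapping) at 20% or more. At 30% or more, windows under 2% in nrpd1-3 had 28.1% in NRPD1ΔCTD against 38.9% in NRPD1 FL (-10.8 points, or -27.7%), and those at 20% or more in nrpd1-3 overlapped (-0.211), although their arm windows alone were apart (-1.35). Within a class, arms and dense heterochromatin came close together in some cases and stayed apart in size in others. At 20% to 30% in NRPD1 FL and under 2% in nrpd1-3 the difference was -8.19 points in the arms and -8.05 in dense heterochromatin. At 30% or more and 5% to 10% in nrpd1-3 it was -7.15 and -7.36. At 10% to 20% in NRPD1 FL it was -4.43 and -2.99 with 2% to 5% in nrpd1-3, and -2.06 and -0.864 with 5% to 10%. At 30% or more in NRPD1 FL and under 2% in nrpd1-3, the 2 parts differed as well, with -11.6 in the arms and -8.82 in dense heterochromatin. The difference between arms and dense heterochromatin was not tested.

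What was kept of the full-length level varied widely between windows. Among the windows at 20% or more in NRPD1 FL and under 5% in nrpd1-3 that had enough listed cytosines (2563 and 2520 in the 2 binnings), the median share kept in NRPD1ΔCTD was 72.4% (quartiles 58.2% and 84.8%), with 71.7% in the arms and 73.8% in dense heterochromatin. Windows that kept under 25% made up 3.15%, those between 25% and 50% 12.7%, those between 50% and 75% 39.3%, those between 75% and 100% 36.8% and those at 100% or more 7.94%. Windows with too few listed cytosines in NRPD1ΔCTD or nrpd1-3 are not in these shares. At single cytosines of windows at 20% or more in NRPD1 FL, 16.9% and 16.8% of cytosines were at 0 in NRPD1ΔCTD, against 13.5% and 14.3% in NRPD1 FL, while 17.1% and 16.9% were at 50% or more in NRPD1ΔCTD, against 20.6% and 19.8% in NRPD1 FL. The deficit was alike on the strands, with -2.12 points on the top strand and -2.31 on the bottom strand in these windows.

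By position, the level over all tested windows was apart in the arms and overlapped in dense heterochromatin, although lower windows were found in both. The arms had 2.93% and 2.68% in NRPD1ΔCTD against 3.22% and 3.01% in NRPD1 FL, a difference of -0.309 points or -9.93% of the full-length level. The arm difference was -0.187 without NRPD1ΔCTD replicate 2 and -0.204 without NRPD1 FL replicate 1. The pericentromere had 12.1% and 11.8% in NRPD1ΔCTD against 12.1% and 11.9% in NRPD1 FL (-0.107), and the difference in the knob of chromosome 4 was -0.091. Both overlapped. The arms of all 5 chromosomes were apart, with differences of -0.338, -0.339, -0.290, -0.292 and -0.286 points for chromosomes 1 to 5 (-0.152 to -0.215 for chromosomes 2 to 5 without NRPD1ΔCTD replicate 2), and the dense heterochromatin of all 5 overlapped, with differences between -0.2002 and -0.0609.

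Restricted to windows at 10% or more in NRPD1 FL, the arms had 19.4 ± 0.172% in NRPD1ΔCTD and 21.4 ± 0.294% in NRPD1 FL (SD, n = 2 each), a difference of -1.97 points, and dense heterochromatin had 15% in NRPD1ΔCTD and 15.1% in NRPD1 FL (-0.131, overlapping). With windows counted equally these were -4.10 and -0.66 points. By chromosome the arm differences were -2.27, -2.24, -1.89, -1.86 and -1.68, each apart. Taken over all tested windows, the share called lower did not follow this order. It was 0.657% in the arms and 0.953% in dense heterochromatin, where more windows are methylated, and between 0.652% and 0.834% by chromosome. Set against the windows at 10% or more, lower windows were more frequent in the arms. There 1404 stood beside 10304 and 10191 such windows in the 2 binnings, and in dense heterochromatin 685 beside 36559 and 36127.

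**Figure D3:**
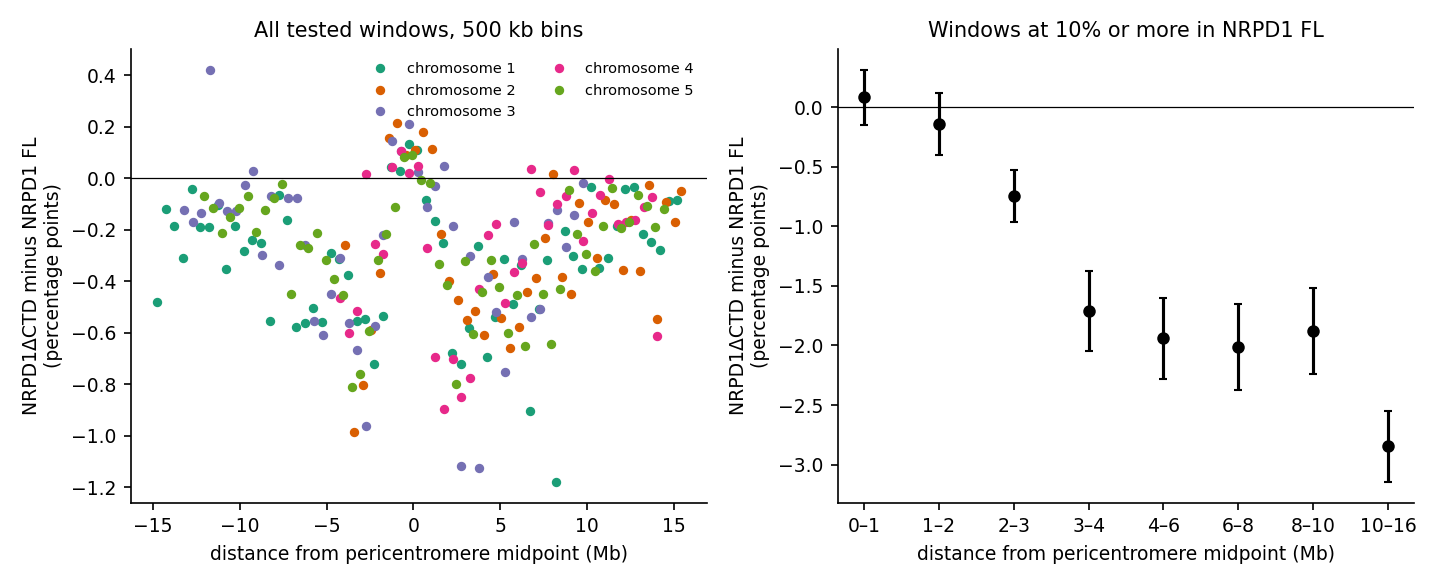
Difference in CHH level, NRPD1ΔCTD minus NRPD1 FL in percentage points, against distance from the pericentromere midpoint in Mb: over all tested windows in 500 kb bins of each chromosome (left) and over windows at 10% or more in NRPD1 FL in classes of distance, with the SD of the difference (right). The bins lie around 0 at the midpoint and mostly below it on either side, and the difference over methylated windows reaches -2.85 points beyond 10 Mb.

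Among windows at 10% or more, the difference was 0.0815 points within 1 Mb of the pericentromere midpoint and -0.144 between 1 and 2 Mb, both overlapping. It was -0.748 between 2 and 3 Mb, -1.71 between 3 and 4 Mb, -1.94 between 4 and 6 Mb and -2.85 between 10 and 16 Mb, and the groups were apart in every class from 2 Mb outward. Of all tested windows, methylated or not, the share called lower was highest at the margin, 1.72% between 2 and 3 Mb. It was 0.294% within 1 Mb and 0.391% beyond 10 Mb. The number of windows at 10% or more differed between these classes. Between 2 and 3 Mb, 394 lower windows stood beside 7107 and 7056 such windows in the 2 binnings. Within 1 Mb it was 79 beside 16811 and 16601, and beyond 10 Mb 289 beside 1431 and 1447. Set against these numbers, lower windows were most frequent beyond 10 Mb. In bins of 500 kb over all tested windows, the NRPD1ΔCTD mean was below the NRPD1 FL mean in 213 of 240 bins, and both libraries were below both in 154. The bins ranged from -1.18 to 0.420 points with a median of -0.255.

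Relative to genes, the deficit was largest just outside them. Windows between genes and within 1 kb upstream of a protein-coding gene made up 6.51% of the tested windows and 27.6% of the lower windows. Of them 576 (3.10%) were called lower, and within 1 kb downstream 404 (2.94%), both above the 0.731% of all windows. Intergenic windows farther than 1 kb had 794 (2.19%), non-coding RNA genes 35 (0.893%), untranslated exons 73 (0.264%), introns 97 (0.199%), pseudogenes 55 (0.171%) and coding exons 55 (0.0525%). These shares are of all tested windows, and the classes differ in how many are at 10% or more in NRPD1 FL. In the 2 binnings such windows numbered 421 and 402 in untranslated exons and 1371 and 1321 in coding exons. In pseudogenes they numbered 21842 and 21631, and farther than 1 kb from genes 17018 and 16859. Set against these numbers, the order of the 4 classes changes, with untranslated exons first and pseudogenes last.

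Among windows at 10% or more in NRPD1 FL, those within 1 kb upstream had 18.8% and 18.4% in NRPD1ΔCTD against 23.6% and 23.2% in NRPD1 FL, with 10.5% and 10.03% in nrpd1-3. This is a difference of -4.79 points or -20.5%. Within 1 kb downstream it was -4.03, in untranslated exons -3.76, in non-coding RNA genes -1.54, in introns -1.25, farther between genes -0.975 and in coding exons -0.671, all apart. Pseudogenes overlapped, with 15.6% in NRPD1ΔCTD, 15.5% in NRPD1 FL and 15.7% in nrpd1-3. The 3 groups thus stood close together in this class.

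For intergenic windows at 10% or more the difference was -3.52 points within 250 bp of a gene, -5.40 (-22.5%) between 250 and 500 bp, -4.49 between 500 and 1000 bp, -3.56 between 1000 and 2000 bp, -1.70 between 2000 and 5000 bp and -0.255 (-1.67%) beyond 5000 bp, all apart. The level in nrpd1-3 was lowest, at 9.41%, in the class between 250 and 500 bp and was 13.6% beyond 5000 bp.

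**Figure D4:**
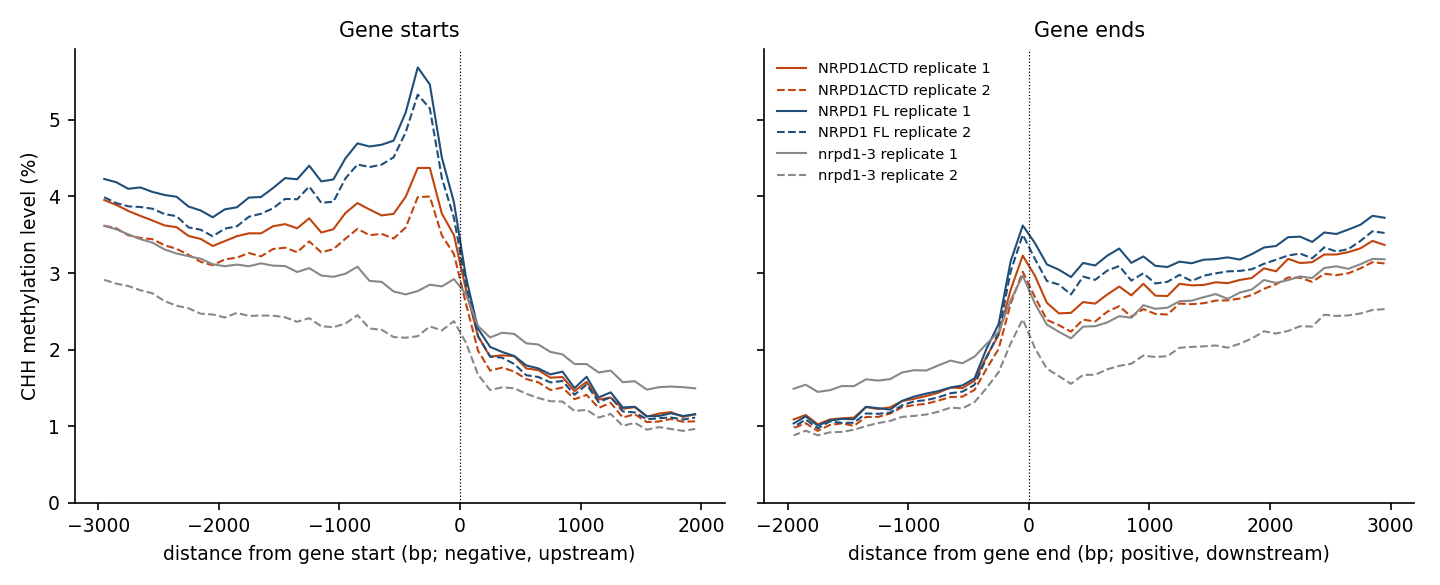
CHH methylation level (%) in 100 bp bins around the starts (left) and ends (right) of 27444 protein-coding genes, from 3000 bp outside to 2000 bp inside, with 1 line per library of NRPD1ΔCTD, NRPD1 FL and nrpd1-3. Inside, shorter genes drop out bin by bin, which leaves 14444 genes at 1900 to 2000 bp. The NRPD1 FL lines peak at 300 to 400 bp upstream of the start, where NRPD1ΔCTD has 4.18% against 5.51% in NRPD1 FL, and the NRPD1ΔCTD lines are about level from there to 200 bp upstream (4.19% at 200 to 300 bp).

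Averaged over 27444 protein-coding genes in bins of 100 bp, both NRPD1ΔCTD libraries lay below both NRPD1 FL libraries in all 30 bins outside the start and all 30 outside the end, as far as 3000 bp. The largest deficit was at 300 to 400 bp upstream of the start, with 4.18% in NRPD1ΔCTD, 5.51% in NRPD1 FL and 2.47% in nrpd1-3 (-1.33 points, -24.1%). Past the end it was at 200 to 300 bp, with 2.40% in NRPD1ΔCTD, 2.95% in NRPD1 FL and 1.94% in nrpd1-3 (-0.550 points). Inside genes, where shorter genes drop out bin by bin, the groups were apart in 4 of 20 bins from the start and 3 of 20 from the end. Where NRPD1 FL was under 1%, the nrpd1-3 libraries read 0.877% and 0.371%, so they differed from each other at background level.

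Among genes with a symbol, 198 of 10374 had a lower window that met the needs for naming inside the gene or within 1 kb upstream, and the 10 with the largest loss were named. All 10 windows lay in the arms, 7 upstream and 3 inside the gene. The largest was the ZW2 window described above. PAL3, a phenylalanine ammonia-lyase of the phenylpropanoid pathway, had a window 319 bp upstream with 12% and 4.23% in NRPD1ΔCTD against 28.5% and 34.4% in NRPD1 FL. FaTA, an acyl-ACP thioesterase of fatty acid synthesis, had 1.22% and 2.62% in NRPD1ΔCTD against 26.4% and 34.0% in NRPD1 FL at 425 bp upstream, close to the 1.42% and 1.43% of nrpd1-3. NIG, a GTPase that interacts with a viral nuclear shuttle protein, had 0.345% and 0.346% in NRPD1ΔCTD against 19.1% and 39.9% in NRPD1 FL. At NIG the NRPD1 FL replicates differed by more than at the other named genes while both NRPD1ΔCTD libraries stayed near 0.

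NEK1, a NIMA-related kinase, kept the highest level of the 10, with 41.4% and 54.8% in NRPD1ΔCTD against 67.3% and 77.3% in NRPD1 FL and 0% in both nrpd1-3 libraries. The FTSH protease gene ftsh7 had 15.8% and 21.5% in NRPD1ΔCTD against 40.2% and 45.5% in NRPD1 FL. MED8, a subunit of the Mediator complex, had 11.9% and 11.5% in NRPD1ΔCTD against 38.4% and 40.4% in NRPD1 FL, but on 637 and 514 reads in NRPD1ΔCTD against 4029 and 4317 in NRPD1 FL, so the depth of this window differed as well.

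Inside genes, the intron window of the cytochrome P450 gene CYP706A7 had 4.00% and 19.3% in NRPD1ΔCTD against 45.1% and 37.1% in NRPD1 FL. An intron window of PP2-B4, a phloem protein gene, had 7.26% and 8.81% in NRPD1ΔCTD against 39.3% and 35.5% in NRPD1 FL, and an untranslated exon window of the cysteine protease gene CEP2 had 12.9% and 16.2% against 43.0% and 37.6% in NRPD1 FL. The groups did not overlap in any of the 10 windows, as the naming rule required.

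The genes of the methylation machinery were looked at as 4 lists of 34 genes in all, with 677 tested windows in the genes or within 1 kb. Of these genes 2 (5.88%) had a lower window and 0 a higher one, against 5.16% of all protein-coding genes with a lower window. Both belong to the 12 genes of siRNA production. The window 237 bp upstream of DCL3, the Dicer that cuts the Pol IV siRNAs, had 3.77% and 4.90% in NRPD1ΔCTD against 18.4% and 13.1% in NRPD1 FL. The window downstream of CLSY3, a chromatin remodeler that acts with Pol IV, had 11.6% and 13.2% in NRPD1ΔCTD against 30% and 25.1% in NRPD1 FL. None of the 12 genes of Pol V and targeting, the 6 of other DNA methylation or the 4 of DNA demethylation had one. The median difference of the lists in this order was -0.0523, -0.0280, 0.0632 and -0.0444 points, against -0.0168 for all protein-coding genes.

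Of the loci examined singly in the study, those with a gene identifier were looked at, and its transposon loci were not. SDC, ERT7, ERT9 and ERT14 each had 1 lower window within 300 bp, of 9, 3, 11 and 4 tested windows in this order. AT3G30844 had 0 of 12. Among all tested windows 0.731% were lower, but most of those were under 1% in NRPD1 FL. The study took these loci as ones known to need Pol IV for silencing, so the 2 sets are unlike. The group differences over the loci were -2.68, -11.4, -2.02, -4.59 and -0.0625 points.

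The deficit also differed with the length of the run of methylated windows. Adjacent tested windows at 10% or more in NRPD1 FL were joined into runs, again on 1 library and measured in the others. An untested window also ends a run, so a single window or a run end can lie beside methylated sequence that was not tested. In the arms, single windows had 15.9% and 15.7% in NRPD1ΔCTD against 22.7% in both NRPD1 FL libraries, with 6.29% and 6.08% in nrpd1-3. This is a difference of -6.90 points or -30.5%. It was -5.96 points in runs of 2, -4.28 in runs of 3 or 4, -2.21 in runs of 5 to 9 and -0.459 in runs of 10 to 19, all apart. In runs of 20 or more the groups overlapped (-0.112), at 20.8% in NRPD1ΔCTD and 20.9% in NRPD1 FL. Along this order the full-length level stayed between 20.3% and 24.5%, while the nrpd1-3 level was 6.19% in single windows and 20.2% in the longest runs.

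In dense heterochromatin the same order held at a smaller size, with -1.43 points in single windows, -1.26 in runs of 2, -0.690 in runs of 3 or 4 and -0.256 in runs of 5 to 9, all apart. Runs of 10 to 19 (0.0434) and of 20 or more (0.171) overlapped.

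**Figure D5:**
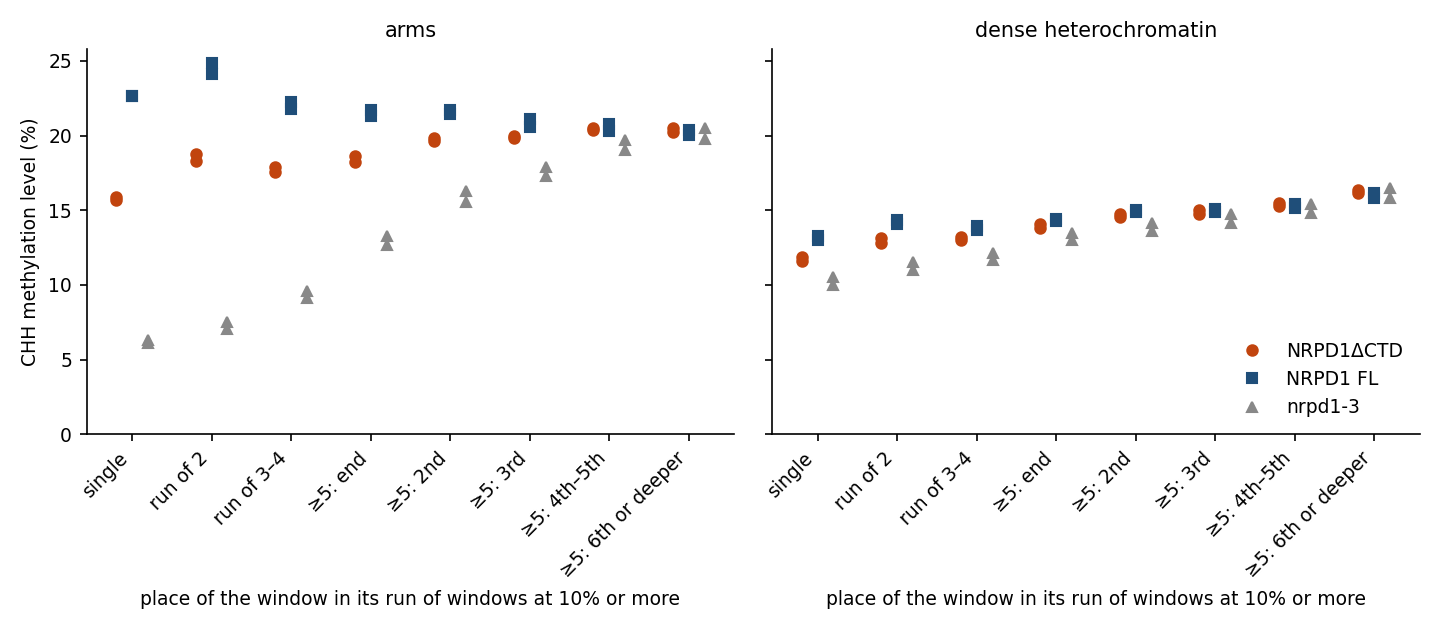
CHH methylation level (%) in arms (left) and dense heterochromatin (right) by the place of a window in its run of adjacent windows at 10% or more in NRPD1 FL, with 1 point per library of NRPD1ΔCTD, NRPD1 FL and nrpd1-3. In the arms NRPD1ΔCTD lies 6.90 points below NRPD1 FL in single windows and 3.05 below at the ends of runs of 5 or more, and the libraries of all groups come together deeper in the runs.

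Within runs of 5 or more windows the deficit was at the ends. In the arms the first and last windows had 18.7% and 18.3% in NRPD1ΔCTD against 21.7% and 21.3% in NRPD1 FL (-3.05 points, -14.2%), the next windows inward had -1.82 and the windows after those -0.927, all apart. The windows beyond these, the fourth or the fifth from an end, overlapped (-0.0913), as did those deeper (0.173). In dense heterochromatin the first and last windows (-0.379) and the next inward (-0.283) were apart, and the deeper ones overlapped (-0.0853, 0.0932 and 0.258). Over the genome the ends differed from the interior by -0.906 points in this difference, and by -1.56 when runs were built at 5% or more.

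Among the 9 CHH trinucleotides, the deficit in the arms was of similar size in points and unequal as a share of the full-length level. At windows of 10% or more, CAA cytosines had 41.2% in NRPD1ΔCTD against 42.8% in NRPD1 FL (-1.58 points, -3.69%), and CTA cytosines had 40.8% against 42.9% in NRPD1 FL (-2.08 points, -4.86%). CCC cytosines had 4.8% in NRPD1ΔCTD against 6.81% in NRPD1 FL (-2.01 points, -29.5%), and CCT cytosines had 4.44% against 6.20% in NRPD1 FL (-1.77 points, -28.5%). All 9 were apart in the arms, between -1.58 and -2.21 points. CAA and CTA are the contexts that CMT2 methylates best, and they held 38.3% and 36.9% in nrpd1-3, against 1.85% for CCC cytosines.

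In dense heterochromatin CAA (0.248 points), CTA (0.146) and CTC (-0.0963) cytosines overlapped, and the other 6 were apart, between -0.213 and -0.371 points. There CCC cytosines had 1.93% in NRPD1ΔCTD against 2.26% in NRPD1 FL (-14.8%). Over the genome, CAA cytosines differed by -0.111 points (overlapping) and CCC cytosines by -0.628. With windows counted equally these were -1.34 and -1.20, so that the order of the contexts in points depends on the weighting.

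The 45 higher windows had 31.9% and 37.1% in NRPD1ΔCTD against 19.6% and 22.9% in NRPD1 FL, with 25.6% and 28.0% in nrpd1-3. Of 39 with enough cytosines in nrpd1-3, 26 (66.7%) were at or above NRPD1 FL in nrpd1-3 as well. The call selects windows with a low level in these NRPD1 FL libraries, so this share follows in part from the call. The same share over all tested windows was not computed. In the 3 named ones, a window in the pseudogene AT2G07770 (chr2:3587101-3587400) had 44.0% and 48.8% in NRPD1ΔCTD against 13.1% and 18.4% in NRPD1 FL, with 0.606% and 1.63% in nrpd1-3. A window in the coding exon of AT4G13390 (chr4:7784701-7785000), which encodes an extensin of the cell wall, had 39.1% and 40.9% in NRPD1ΔCTD against 10.5% and 13.1% in NRPD1 FL. Its nrpd1-3 libraries read 3.78% and 33.6%, and its difference of 28.1 points was -1.74 with 10 reads or more per cytosine and -2.07 with the cytosines listed in all 4 libraries. A window in the pericentromere of chromosome 4 (chr4:3541801-3542100) had 32.5% and 34.6% in NRPD1ΔCTD against 14.01% and 14.7% in NRPD1 FL. Its nrpd1-3 libraries read 14.97% and 32.2%, so they covered nearly the whole gap between the groups.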

How the data were processed

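Bisulfite libraries (TruSeq DNA methylation kit) were made by the authors from genomic DNA of 3 groups with 2 libraries each. According to the study's methods and the submitters' processing notes, which name bcl2fastq 2.16.0.10, cutadapt 1.9.1, Bismark 0.16.1, methylKit 0.9.5 and the TAIR10 build, duplicate reads were removed and cytosines with 5 reads or more were kept. The deposited tables give, per CHH cytosine, the coverage as counts of reads and the percent of reads methylated. The libraries listed 12654903 to 13819039 cytosines at a mean coverage of 15.2 to 16.3 reads, and counts of methylated reads were recovered as coverage times percent, within 0.001 of a whole number.

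Windows of 300 bp were tested with a likelihood-ratio test of a logistic regression on reads (Python 3.11.15, NumPy 2.4.6, SciPy 1.17.1), adjusted by Benjamini-Hochberg over all tested windows, and the test was checked on simulated data. The study also used logistic regression. Limma 3.58.1 in R 4.3.3 and a quasi-binomial F test were alternatives, with other minimum reads and cytosines, shared cytosines, thinned reads, shifted windows, equal weights and each library left out. Levels pool reads over windows, so deep windows weigh more. Named windows had at least 20 cytosines in each library and groups that did not overlap: the largest loss per chromosome in arms and in dense heterochromatin, the 10 genes with the largest loss, and the 3 largest gains. Sequences and annotation came from TAIR10.1 (RefSeq). The comparison, gene lists and rules were chosen with earlier results of these data known. P-values of the logistic regression cover read counting and not extra spread between replicates.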

Additional observations from a re-analysis of the deposited data

How the results depend on the processing

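The 2089 lower and 45 higher windows became 1153 and 27 with 10 reads or more per cytosine, 1237 and 22 with 20 cytosines or more per window, and 266 and 7 at a difference of 20 points. With shared cytosines 28 were higher. The quasi-binomial F test and limma gave 0 and 0, with 1000 lower and 16 higher windows at an unadjusted p under 0.05 in the first and 1318 and 23 in the second. Of the lower windows, 916 (43.8%) were called again with 10 reads or more and 1350 (64.6%) with shared cytosines. Leaving out a library gave 1994 to 2271 lower and 61 to 81 higher windows (75 without NRPD1ΔCTD replicate 1, 81 without NRPD1ΔCTD replicate 2, 61 without NRPD1 FL replicate 1 and 73 without NRPD1 FL replicate 2). The cause of these changes was not tested.

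The difference 1 kb upstream of genes was -4.38 points with 10 reads or more and -6.07 with equal weights. The difference between run ends and interior was -0.747 with 10 reads or more, -0.777 with shared cytosines, -1.32 with equal weights and -1.56 with runs at 5%. That of CCC cytosines was -0.538, -0.526 and -1.20 for the first 3 of these settings. That of windows at 20% or more in NRPD1 FL was -4.27 with equal weights and, chosen after seeing the data, -1.53 with bins on NRPD1ΔCTD. The difference over all windows lay between -0.386 and 0.0101 with a library left out, the last without NRPD1ΔCTD replicate 2. The higher window in AT4G13390 reversed to -1.74 with 10 reads or more and -2.07 with shared cytosines, and the other 196 of 198 values of named windows kept direction and call under the settings on reads, cytosines and left-out libraries, with 9 named windows not tested at 10 reads. No named window kept its call under the quasi-binomial F test or limma. The replicate block gave 2089 lower windows, 2063 of them shared, and 45 higher ones; replicate deviations correlated at 0.00286 over windows, and nothing in the labels pairs the numbers. Averaged levels did move with the number: the SD of the difference was smaller within numbers in 40 of 42 results on levels, and over all windows the difference was -0.152 for replicate 1 and -0.224 for replicate 2, so groups called overlapping could still differ in 1 direction within both numbers (dense heterochromatin -0.0707 and -0.143).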

Other observations

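The NRPD1 gene itself carried CHH methylation that differed between the groups. Over the 24 tested windows of the transgene's extent the levels were 3.68% and 3.52% in NRPD1ΔCTD against 7.03% and 6.74% in NRPD1 FL, with 8.26% and 7.79% in nrpd1-3. Over the 15 of them that cover the start side of the gene and the sequence before it, they were 1.16% and 0.989% in NRPD1ΔCTD against 7.18% and 6.84% in NRPD1 FL, with 5.20% and 4.71% in nrpd1-3. The windows were chosen after their values were seen, and reads of the endogenous gene and of the transgene cannot be told apart.

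These windows lie in the 500 kb bin with the largest deficit of the genome, chr1:23000001-23500000, which had 2.93% and 2.88% in NRPD1ΔCTD against 4.25% and 3.93% in NRPD1 FL. Without the 24 windows its difference was -0.943 points, against -1.18 with them. The bin with the largest difference in the other direction, chr3:1500001-2000000, had 4.00% and 3.58% in NRPD1ΔCTD against 3.47% and 3.27% in NRPD1 FL.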
